A study of Drosophila melanogaster with 110 samples.

Results

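Crol and Combgap (Cg) sites were compared in control Kc167 cells. A Crol site was a stretch of merged peaks with a peak in at least 2 of the 3 Crol lists, and a Cg site was made in the same way from the 3 Cg lists. This gave 8119 Crol sites and 7765 Cg sites. The 6 lists come from a series of 110 samples, of which 76 are peak lists of 13 immunoprecipitated targets in control cells and in cells depleted of Rump. Kc167 is an embryonic Drosophila cell line whose cell type the labels give as hemocyte. Control cells received dsRNA against GFP and were collected after 4 days, and both targets share this treatment, with no genetic change named in the labels. Each library of a target is labelled a biological replicate. Each list holds the peaks of 1 library called against an input, so read depth and signal outside peaks were not analysed here. Replicate 2 of Crol and replicate 2 of Cg were called against 1 shared input, which Ph and Pho also used. The inputs of Cg replicates 1 and 3 were shared with Ph and Pho as well, and that of Crol replicate 1 with Su(z)12. No expression data were used here, so the identity of the cells could not be checked against markers.

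Crol (crooked legs) is a zinc finger protein first known as an ecdysone responsive factor, and it is counted among the proteins that bring Polycomb group (PcG) complexes to Polycomb response elements (PREs). Combgap is another zinc finger protein with a part in PcG recruitment, and it is known to bind GTGT repeats. Pho is the sequence specific recruiter of the PhoRC complex. Ph, Psc and Pc belong to PRC1, E(z) and Su(z)12 to PRC2, which writes H3K27me3. CP190, Su(Hw), Mod(mdg4) and CTCF are insulator proteins.

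The sequences below show what lay under the strongest summits. They reach 50 bp to each side of the median summit of the 3 lists of a target, on the forward strand of the dm6 assembly. The pairs come from the 3 highest ranked shared regions, and the others from the 4 highest ranked regions with peaks in the 3 Crol lists only or in the 3 Cg lists only. Capitals mark GTGTGT or its reverse complement ACACAC and runs of 6 or more C or G. These were a word known for Cg and the word most unequal between separate Crol and separate Cg sites.
Atxn7, Crol summit (chr2L:2376300-2376400): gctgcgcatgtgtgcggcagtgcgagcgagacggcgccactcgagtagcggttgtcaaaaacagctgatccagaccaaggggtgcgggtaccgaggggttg
Atxn7, Cg summit (chr2L:2376260-2376360): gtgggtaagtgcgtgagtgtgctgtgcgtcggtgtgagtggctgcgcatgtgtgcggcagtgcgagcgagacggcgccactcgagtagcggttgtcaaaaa
lncRNA:CR45018, Crol summit (chrX:13304464-13304564): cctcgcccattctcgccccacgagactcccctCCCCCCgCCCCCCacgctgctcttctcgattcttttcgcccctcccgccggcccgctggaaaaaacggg
lncRNA:CR45018, Cg summit (chrX:13303987-13304087): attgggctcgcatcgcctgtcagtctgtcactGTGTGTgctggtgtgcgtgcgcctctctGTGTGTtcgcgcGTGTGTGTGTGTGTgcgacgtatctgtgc
vri, Crol summit (chr2L:5292980-5293080): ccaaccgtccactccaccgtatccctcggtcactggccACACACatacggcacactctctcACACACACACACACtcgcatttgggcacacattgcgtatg
vri, Cg summit (chr2L:5293029-5293129): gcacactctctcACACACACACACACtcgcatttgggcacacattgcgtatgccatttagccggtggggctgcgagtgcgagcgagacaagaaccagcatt
dnc, Crol summit (chrX:3176333-3176433): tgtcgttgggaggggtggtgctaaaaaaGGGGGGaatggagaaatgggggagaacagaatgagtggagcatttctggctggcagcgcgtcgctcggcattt
snRNA:LU, Crol summit (chr2L:3046545-3046645): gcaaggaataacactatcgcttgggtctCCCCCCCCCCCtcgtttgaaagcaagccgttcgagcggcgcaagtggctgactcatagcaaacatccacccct
mon2, Crol summit (chr2L:8123745-8123845): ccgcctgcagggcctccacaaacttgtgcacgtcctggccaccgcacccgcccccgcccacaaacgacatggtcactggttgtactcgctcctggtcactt
Sema1a, Crol summit (chr2L:8544173-8544273): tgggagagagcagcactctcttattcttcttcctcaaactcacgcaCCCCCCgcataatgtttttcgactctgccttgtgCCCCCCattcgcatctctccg
Unr, Cg summit (chr3L:8441897-8441997): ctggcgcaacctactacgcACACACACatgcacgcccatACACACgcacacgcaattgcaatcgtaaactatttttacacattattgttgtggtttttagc
lncRNA:CR44603, Cg summit (chr2L:1633072-1633172): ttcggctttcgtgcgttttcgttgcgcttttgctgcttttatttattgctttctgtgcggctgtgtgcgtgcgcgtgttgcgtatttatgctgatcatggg
Traf4, Cg summit (chr2L:4371851-4371951): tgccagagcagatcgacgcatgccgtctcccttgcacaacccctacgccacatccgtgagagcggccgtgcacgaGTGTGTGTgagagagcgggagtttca
mIF2, Cg summit (chr3R:28547315-28547415): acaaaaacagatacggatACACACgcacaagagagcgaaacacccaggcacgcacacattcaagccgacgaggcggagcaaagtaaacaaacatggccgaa
The windows of Atxn7, the highest ranked shared region, hold neither word. In the lncRNA:CR45018 region on the X chromosome the Crol summit lay on C runs and the Cg summit, 477 bp away, on GT repeats. In the vri region the summits were 49 bp apart, and both windows hold AC repeats. The windows of dnc, snRNA:LU and Sema1a, which had Crol peaks only, each hold a run of 6 or more C or G, and that of mon2 holds none. The windows of Unr, Traf4 and mIF2, which had Cg peaks only, hold GTGTGT or ACACAC, and that of lncRNA:CR44603 does not.

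The lists of both targets were of like length. The Crol lists held 7214, 8903 and 8693 peaks and the Cg lists 7683, 9372 and 7866, so the groups overlapped (8270 ± 921 and 8307 ± 927, SD, n = 3 and 3, exact two-sided permutation test on log2 numbers, p = 1.0). With 3 lists against 3, the smallest p that the test allows is 0.1, so no difference between the targets can pass 0.05. The fold enrichment over input, the authors' value at the summit, had medians of 3.41, 3.79 and 4.15 in the Crol lists and of 4.81, 5.35 and 5.21 in the Cg lists. Because enrichment depends on the library, peaks were compared by their percentile of fold enrichment within their own list, with 100 for the strongest peak. Lists of a target resembled each other more than lists of different targets. The Jaccard index, the shared part of the sequence covered by either of 2 lists, was 0.60 to 0.83 in the 6 pairs of lists within a target and 0.36 to 0.41 in the 9 pairs between targets (means 0.70 and 0.39, exact permutation test, p = 0.1, n = 3 and 3 lists). The pair that shared an input had an index of 0.38, within the range of the other pairs between targets.

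Most sites of each target overlapped a site of the other target. Of the Crol sites, 4810 (59.2%) overlapped a Cg site by at least 1 bp, and of the Cg sites, 5346 (68.8%) overlapped a Crol site. This left 3309 separate Crol sites (40.8%) and 2419 separate Cg sites (31.2%). Separate Crol sites numbered 1975 without Crol replicate 2 and 1903 without Crol replicate 3, when both remaining lists had to hold a peak. The shared Crol sites were wider, so that 496 of them covered 2 or more Cg sites. Their median width was 833 bp, against 478 bp for separate Crol sites and 422 bp for separate Cg sites. Sites with a peak in all lists of their target were shared more often than those found in 2 lists for Crol (70.8% of 6039 against 25.8% of 2080), and for Cg the shares were 70.9% of 6600 and 57.4% of 1165. Most separate sites had no peak of the other target in any list. No Cg list had a peak at 2736 separate Crol sites (82.7%), and no Crol list had a peak at 2018 separate Cg sites (83.4%). The nearest summit of the other target lay at a median of 3518 bp from a separate Crol site and 2584 bp from a separate Cg site.

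Across the 12932 merged regions of all 6 lists, 3815 (29.5%) had a peak in every list. A further 1368 regions (10.6%) had peaks in the 3 Crol lists and in no Cg list, and 1595 regions (12.3%) had peaks in the 3 Cg lists and in no Crol list. A weak site under the calling threshold is not in a list, and its part in the separate sites was not tested. The lowest -log10 q of a list was 5.02 to 5.04 for Crol and 5.25 to 6.39 for Cg.

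Crol peaks at shared sites ranked well above those at separate sites, and for Cg the gap was smaller. The median percentile of Crol peaks at shared sites was 60.9, 70.1 and 69.0 in the 3 lists, and at separate sites it was 33.1, 33.3 and 34.3. The difference was 33.1 ± 4.67 percentile points (SD, n = 3), with the same direction in 3 of 3 lists (exact sign flip test, p = 0.25, the smallest that 3 lists allow). For Cg the medians were 54.9, 57.3 and 56.8 at shared sites and 44.7, 51.4 and 45.5 at separate sites, a difference of 9.15 ± 2.85 points (SD, n = 3, exact sign flip test, p = 0.25). When shared sites had to have summits at most 250 bp apart, the Cg difference was 1.98 points and the Crol difference 26.98. Of the weakest quintile of Crol peaks 42.1%, 23.2% and 23.2% lay at a Cg site, and of the strongest quintile 86.6%, 94.2% and 92.1%. Crol replicate 1 was thus less steep than the other lists. Of the weakest quintile of Cg peaks 67.1%, 69.2% and 67.4% lay at a Crol site. The share in the next quintile was lower in each Cg list, at 53.7% to 62.9%, and that in the strongest quintile was 79.3% to 84.4%. Taken over whole lists, 58.8% ± 4.68 of Crol peaks and 68.1% ± 1.44 of Cg peaks (SD, n = 3 each) lay at a site of the other target, and the lists did not overlap (exact permutation test, p = 0.1). This difference of -9.30 points was -1.30 without Crol replicate 2 and -1.57 without Crol replicate 3 (exact permutation test, p = 0.9 for both).

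**Figure D1:**
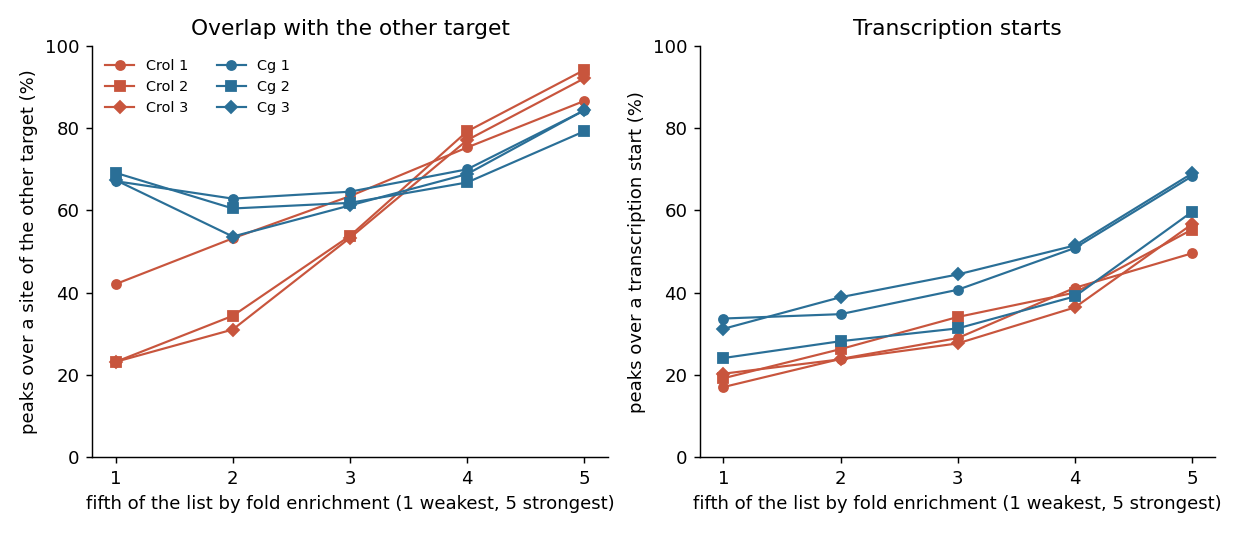
Share of peaks over a site of the other target (left) and over an annotated transcription start (right), in percent, by quintile of the list in order of fold enrichment, with 1 line per list. The Crol lines rise from 23.2% to 42.1% in the weakest quintile to 86.6% to 94.2% in the strongest, and the Cg lines start at 67.1% to 69.2%.

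In regions with a peak in every list, percentiles were less alike between the targets than within a target. Over the 3815 regions common to the lists, the Spearman correlation of percentiles across regions was 0.76 to 0.89 for pairs of Crol lists, 0.90 to 0.96 for pairs of Cg lists and 0.25 to 0.37 for a Crol with a Cg list. These are correlations across regions of the same libraries, and the regions are not independent replicates. The pair with a shared input had a value of 0.32.

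Summits of Crol and Cg lay close together but not at the same base. The median distance between summits in these regions was 18 to 19 bp for 2 Crol lists, 19 to 25 bp for 2 Cg lists and 41 to 56 bp for a Crol and a Cg list. On average the distance was 20.7 bp within targets and 48.4 bp between targets, and the ranges did not overlap (difference 27.8 bp, exact permutation test, n = 3 and 3 lists, p = 0.1). When the median summit of each target was used, 55.5% of regions had summits at most 50 bp apart and 25.3% had summits over 200 bp apart. Only the strongest peak of each list in a region was used, so a long distance can lie between different peaks of 1 merged region. Long distances were more frequent in wide regions. In the 1628 regions under 1 kb wide the mean distance was 20 bp within targets and 30.6 bp between targets (p = 0.1, same test), a width limit chosen after seeing the data. Of these narrow regions 9.21% had median summits of the targets over 200 bp apart. In the regions of 1 kb or wider, the median distance between the targets was 76 bp and 37.3% were over 200 bp apart.

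**Figure D2:**
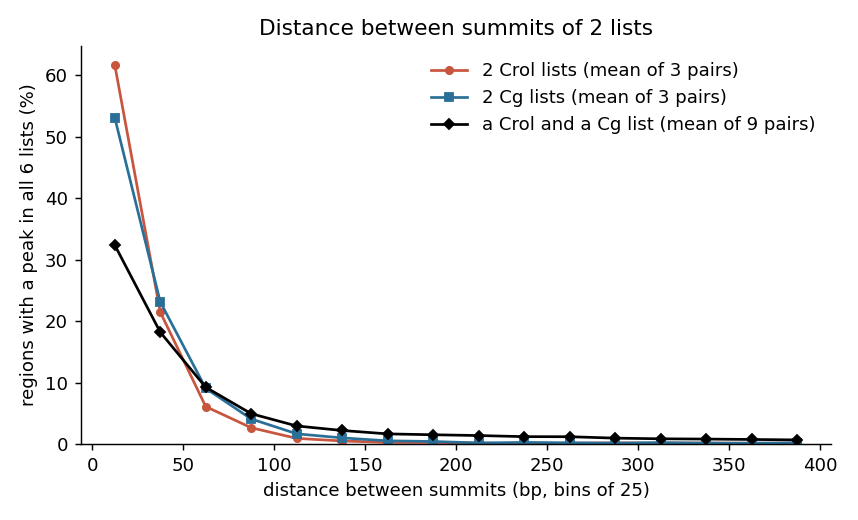
Share of the 3815 regions where every list had a peak, in percent, by the distance between the summits of 2 lists in bins of 25 bp. Summits less than 25 bp apart made up 61.7% of regions for 2 Crol lists, 53.1% for 2 Cg lists and 32.4% for a Crol and a Cg list.

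The distance differed with what else was at the region. With Su(z)12 the median distance was 20 bp (834 regions) and with Ph 23 bp (1220 regions), against 53 and 58 bp in regions without them. With CP190 it was 71 bp (1735 regions), against 30 bp without. The CP190 regions were also wider, with a median of 1324 bp against 970 bp. Regions with Su(z)12 were narrower than those without (907 against 1177 bp), as were those with Ph (1025.5 against 1163 bp). The distance was 19 bp where the region touched an exon and no start, 45 bp in introns and 57 bp over transcription starts. Median widths of these 3 kinds were 834, 936 and 1341 bp. The part of width in all these differences of distance was not tested. At the 2201 regions over a start, the Cg summit was nearer to the start. It was within 100 bp of the start in 38.3%, 37.3% and 38.2% of regions in the Cg lists and in 29.4%, 31.3% and 29.6% in the Crol lists, which did not overlap (exact permutation test, n = 3 and 3, p = 0.1). The median position relative to the start, with upstream negative, was 11, 9 and 13 bp in the Crol lists and -4, -14 and -4 bp in the Cg lists, which did not overlap (exact permutation test, p = 0.1).

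The sequences at the summits differed in kind. GTGTGT in either strand lay within 100 bp of the summit of 19.0%, 16.5% and 15.6% of Crol peaks and of 39.5%, 41.03% and 38.5% of Cg peaks (difference -22.6 percentage points, exact permutation test, n = 3 and 3, p = 0.1). Of all tiles of the same length on the 6 chromosome arms 12.4% hold the word, and of windows at annotated starts 13.5%. At separate Cg sites 56.2% of windows held it and at separate Crol sites 9.63%. In the Cg lists the share was 18.6% ± 1.13 in the weakest quintile and 72.2% ± 1.25 in the strongest (SD, n = 3). In the Crol lists it was 12.6% ± 1.83 and 24.6% ± 0.815. The longer repeat GTGTGTGT was at 41.2% of separate Cg and 2.16% of separate Crol sites, against 3.64% of tiles. At separate Cg sites matches were concentrated at the summit, with 63.5 matches per 100 sites in the central 25 bp and 3.64 at 500 bp upstream, where overlapping matches each count.

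The word most unequal in the other direction, out of 2080 six-letter words taken with their reverse complements, was CCCCCC. It was within 100 bp of the summit at 28.5% of separate Crol sites, 2.69% of separate Cg sites and 3.96% of tiles. Next came CCTCCG (21.9% and 3.27%) and CCCTCC (22.1% and 3.44%). On the Cg side the most unequal words were ATACAC (25.0% of separate Cg and 3.66% of separate Crol sites), ACATAC (23.2% and 3.41%) and TACACA (28.99% and 4.69%). These words were chosen on these sites, so their shares are a description. The shares also differed between windows of like base composition. In windows with a GC content of 50% to 55% the word was at 48.5% of 497 separate Crol sites, 4.60% of 413 separate Cg sites and 7.32% of tiles, the class with the highest share. At a GC content of 60% or more, which 49.3% of separate Crol sites had, it was at 13.2% of 1618 separate Crol sites, 4% of 25 separate Cg sites and 5.01% of tiles. In the class of 50% to 55% GTGTGT was at 14.9% of separate Crol sites, 65.4% of separate Cg sites and 12.8% of tiles. In cells depleted of Rump, whose lists did not enter the choice of words, CCCCCC was at 17.4% ± 1.17 of Crol summits and 7.84% ± 0.49 of Cg summits (SD, n = 3 each, exact permutation test, p = 0.1). Many of those peaks lie at the same positions as in control cells.

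Within a single region the words parted the summits as well. In the 1262 regions whose summits were over 100 bp apart, GTGTGT was at 55.2% of Cg summits and 20.2% of Crol summits, and CCCCCC at 4.52% and 25.0%. No GTGTGT lay between or within 500 bp of the summits in 188 of these regions. In the others the nearest match was closer to the Cg summit in 820 (76.4%) and to the Crol summit in 250 (23.3%). Words linked to other DNA binding proteins differed less. GAGAG, the core of the GAGA factor motif, was at 34.2% ± 1.74 of Crol and 36.3% ± 0.50 of Cg summits (SD, n = 3, exact permutation test, p = 0.3), and at 21.5% of tiles. GCCAT, the core of the Pho motif, was at 37.5% ± 1.52 and 34.8% ± 0.11 (p = 0.1, same test), against 35.4% of tiles, and CGATA, the core of the BEAF-32 motif, at 23.1% ± 0.50 and 26.7% ± 1.10 (exact permutation test, p = 0.1), against 21.4% of tiles. At peaks of separate sites the mean shares for Crol and Cg were 28.0% and 34.2% for GAGAG and 39.2% and 33.1% for GCCAT. For CGATA they were 18.7% and 26.6%, and the Crol and Cg lists did not overlap for any of these words. A match to such short letters is a description and not a binding site.

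**Figure D3:**
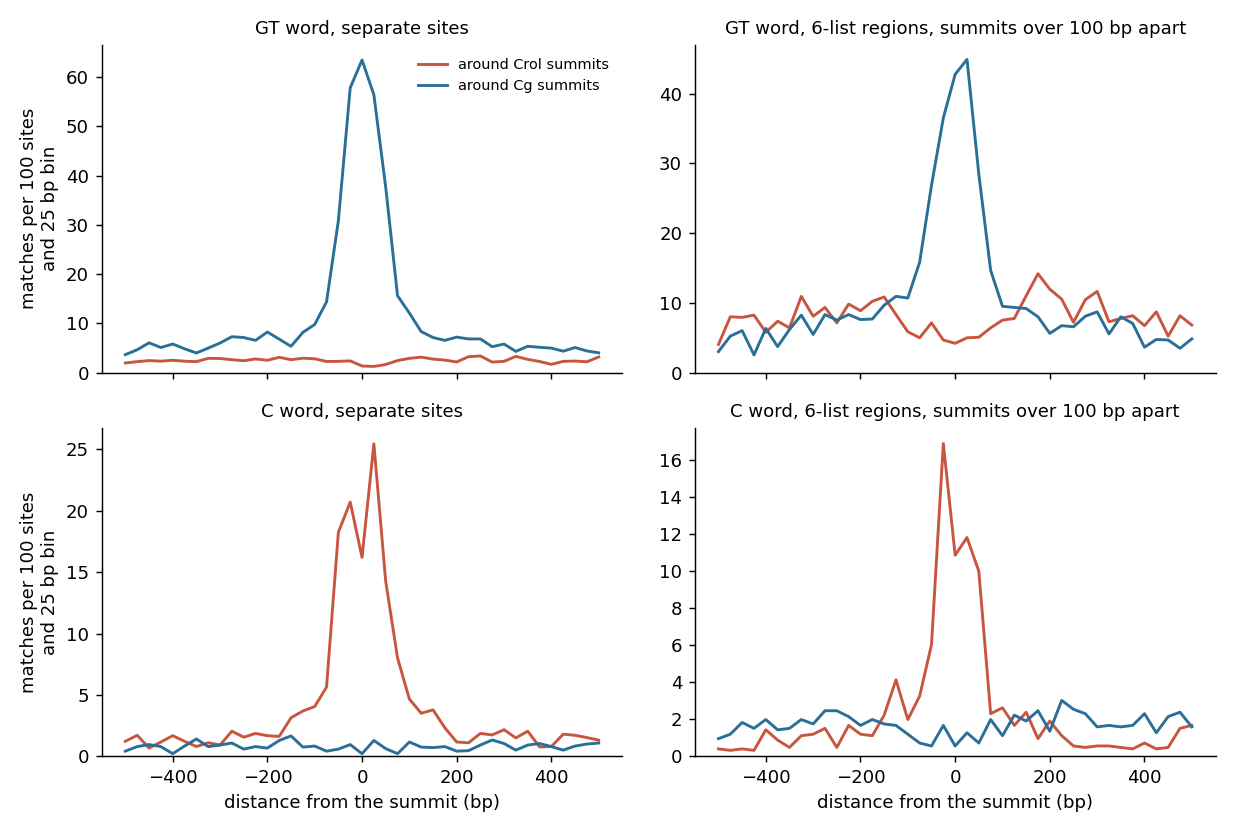
Matches of GTGTGT (GT word, top) and CCCCCC (C word, bottom), both strands, per 100 sites and 25 bp bin by distance from the summit in bp, at separate sites (left) and at the 1262 regions with summits over 100 bp apart (right). The GT word peaks at Cg summits, with 63.5 matches per 100 separate sites in the central bin against 1.34 at Crol summits, and the C word peaks at Crol summits.

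GC content and position also differed between the targets. The median GC content within 100 bp of the summit was 54.7%, 57.2% and 57.2% in the Crol lists and 49.8%, 50.2% and 49.8% in the Cg lists (difference 6.47 points, exact permutation test, n = 3 and 3, p = 0.1). Among summits outside coding exons the difference was 4.15 points (p = 0.1, same exact test), an alternative chosen after seeing the data. It was 59.7% at separate Crol sites and 45.3% at separate Cg sites, while at the regions of all 6 lists it was 54.2% at the Crol and 52.2% at the Cg summit. Coding sequence was more frequent at separate Crol than at separate Cg summits. The summit base was coding at 46.3% of separate Crol sites, 2.15% of separate Cg sites and 17.1% of evenly spaced bases of the genome. It was in a 5′ UTR at 4.20%, 17.0% and 3.07%. In whole lists, 27.02%, 37.3% and 37.4% of Crol summits and 17.8%, 20.3% and 15.3% of Cg summits were coding (exact permutation test, p = 0.1), with Crol replicate 1 lowest among the Crol lists. Coding summits were more frequent among weak peaks of both targets. In the weakest quintile 49.6% ± 1.73 of Crol and 37.8% ± 2.29 of Cg summits were coding. The strongest quintile had 14.0% ± 7.41 and 2.05% ± 0.32 (SD, n = 3 each). Separate Crol peaks ranked low in their lists, and the part of rank in the coding share was not tested. Coding Crol summits differed in sequence from the rest, and coding sequence of the genome differed in the same directions. Of evenly spaced bases of the genome, 1.48% of the coding and 4.46% of the others had CCCCCC nearby. Their median GC content was 52.2% and 40.3%. Of 1520 separate Crol summits in coding sequence 7.17% had CCCCCC nearby, with a median GC content of 64.2%, and of the 1763 others 46.9% had it, at a GC content of 54.2%.

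**Figure D4:**
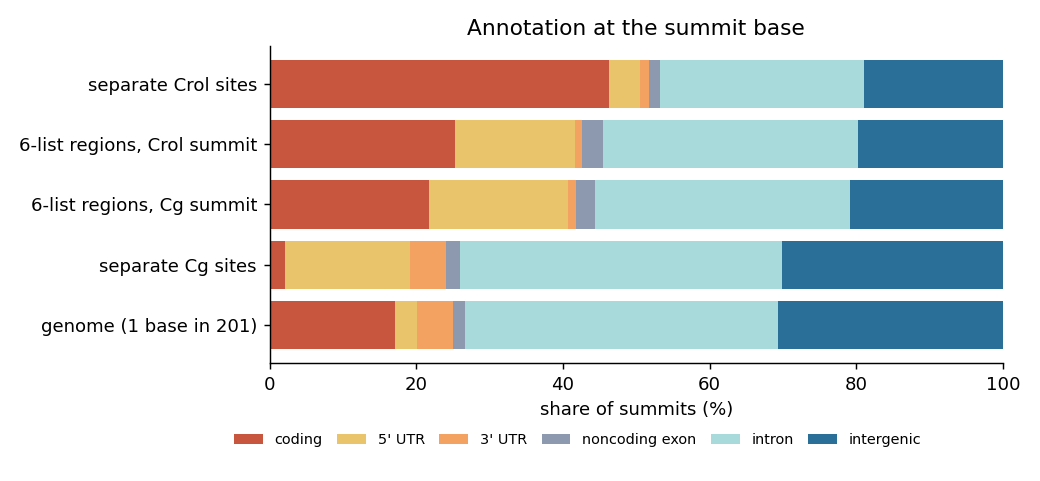
Annotation of the summit base in percent of summits, for separate Crol sites, regions with a peak in all 6 lists (at the Crol and at the Cg summit), separate Cg sites and evenly spaced bases of the genome. Coding sequence makes up 46.3% of separate Crol and 2.15% of separate Cg summits, against 17.1% of the genome.

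Transcription starts were a feature of shared and of separate Cg sites. A start was covered by 2535 of 4810 shared sites (52.7%), 937 of 2419 separate Cg sites (38.7%) and 463 of 3309 separate Crol sites (14.0%). Here and below, shared sites are the 4810 Crol sites that overlap a Cg site. Per list, 32.1%, 35.0% and 33.0% of Crol peaks and 45.7%, 36.5% and 47.0% of Cg peaks covered a start, and the lists did not overlap (difference -9.69 points, exact permutation test, n = 3 and 3, p = 0.1). The share grew with rank in both, from 18.9% ± 1.65 to 53.9% ± 3.77 in the Crol lists and from 29.7% ± 4.98 to 65.7% ± 5.19 in the Cg lists (weakest and strongest quintile, SD, n = 3).

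The other targets were spread unequally over the classes. An insulator protein was at 57.4% of shared, 51.9% of separate Cg and 16.7% of separate Crol sites, and a PRC1 or PRC2 protein at 33.7%, 5.50% and 13.8%. CP190 had a site at 44.1% of shared, 12.8% of separate Crol and 47.2% of separate Cg sites. Su(Hw), a zinc finger protein that recruits CP190 and Mod(mdg4), was at 22.0%, 5.95% and 23.03%. Mod(mdg4) was at 23.7%, 3.99% and 16.3%, and CTCF at 7.78%, 2.81% and 8.19%. Pho was at 60.4% of shared, 19.3% of separate Crol and 12.2% of separate Cg sites, and Ph at 30.7%, 10.3% and 4.46%. Su(z)12 was at 20.5%, 4.99% and 1.03%, with a wide range between its 3 lists (4.93% to 30.2% at shared sites and 0.12% to 20.8% at separate Crol sites). For Psc, Pc and E(z) the shares were 8.27%, 12.2% and 4.47% at shared sites and below 5% at separate sites of either kind. H3K27me3, called in 2 libraries only, was at 10.4%, 10.3% and 7.11%. None of the 11 targets was at 16.8% of shared, 57.4% of separate Crol and 39.98% of separate Cg sites.

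These differences between the separate sites were seen in each list. Of Crol peaks at separate sites 13.2%, 12.7% and 12.2% overlapped a CP190 site, and of Cg peaks 48.5%, 43.8% and 47.8%. For Su(Hw) the shares were 6.34%, 5.74% and 5.78% against 23.2%, 22.4% and 23.1%. In the other direction, Pho was at 19.2%, 20.3% and 19.8% of separate Crol peaks and at 12.9%, 12.2% and 12.3% of separate Cg peaks, and Ph at 11.1% ± 0.775 and 4.54% ± 0.106 (SD, n = 3 each). For each of the 11 targets the Crol and Cg lists did not overlap (exact permutation test, adjusted p = 0.1 over 11 comparisons, the smallest the test allows). Crol was lower for CP190, Su(Hw), Mod(mdg4), CTCF, Psc, Pc and E(z) and higher for Pho, Ph, Su(z)12 and H3K27me3. The separate sites were made from these same lists, so the lists of a target were read at nearly the same sites. Agreement among them is in part built in, and the outcome is a description. Over all peaks the Crol and Cg lists overlapped for Pho, Ph, Psc, E(z) and Su(z)12. When all peaks of a list were counted, Pho was at 42.3% ± 2.24 of Crol and 42.3% ± 1.80 of Cg peaks (exact permutation test, adjusted p = 0.9), a difference of 0.06 points. With every list shortened to its 7214 strongest peaks the Pho difference was 3.69 points and the lists did not overlap (exact permutation test, p = 0.1), and those of Ph and Su(z)12 grew from 1.49 to 4.27 and from 1.15 to 2.63 points (p = 0.1 each, against 0.4 and 0.3 over the whole lists). Over the whole lists CP190 was at 29.9% ± 0.871 of Crol and 41.7% ± 4.52 of Cg peaks (exact permutation test, adjusted p = 0.18).

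**Figure D5:**
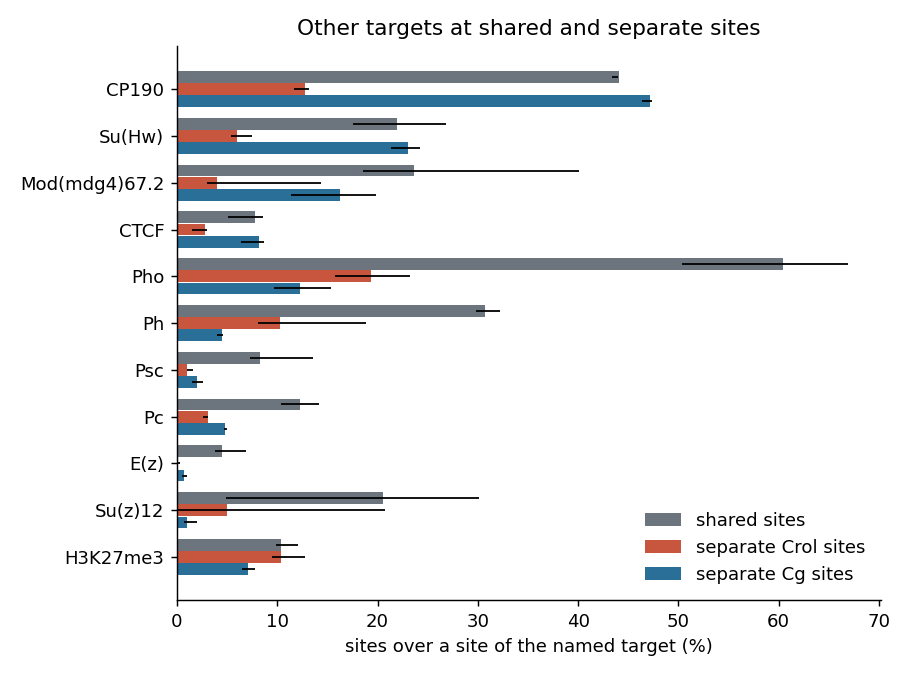
Share of shared sites, separate Crol sites and separate Cg sites, in percent, that overlap a site of each other target in control cells. Black lines span the shares found with each single list of that target (3 lists, 2 for H3K27me3). CP190 is at 44.1%, 12.8% and 47.2% of the 3 classes and Pho at 60.4%, 19.3% and 12.2%.

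Shared sites were wider, which raises the chance of an overlap, so the shares were also counted within 100 bp of the strongest summit. CP190 was then at 33.5% of shared, 10.1% of separate Crol and 44.3% of separate Cg sites, and Pho at 56.6%, 18.6% and 11.7%. Shares also differed with position. Away from transcription starts Su(Hw) was at 32.6% of separate Cg and 6.29% of separate Crol sites, and CP190 at 35.0% and 7.48%. At starts CP190 was at 66.5% of separate Cg and 45.6% of separate Crol sites, and Su(Hw) at 7.90% and 3.89%. Ph was at 46.4% of the shared sites away from starts and at 16.7% of those over a start.

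Seen from the other targets, most Ph, Pho, Su(z)12 and E(z) sites held both proteins, and most CP190 and Su(Hw) sites held neither. Of 2164 Ph sites 72.0% overlapped both a Crol and a Cg site, 17.7% only a Crol site and 4.99% only a Cg site. Of 4606 Pho sites the shares were 69.0%, 17.0% and 6.67%, and of 1303 Su(z)12 sites 79.2%, 14.7% and 1.92%. Of the 247 E(z) sites 88.3% overlapped both, 0.81% only a Crol and 7.29% only a Cg site. Of 7944 CP190 sites 27.1% overlapped both, 5.79% only a Crol site, 14.2% only a Cg site and 52.9% neither. For the 4628 Su(Hw) sites these shares were 23.4%, 4.93%, 11.6% and 60.03%. Of the 3020 Mod(mdg4) sites 38.7% overlapped both and 42.6% neither, and of the CTCF sites 24.3% and 57.2%. Psc and Pc sites also mostly held both (70.1% and 75.4%). Unlike at Ph, their share with only a Cg site (7.01% and 9.06%) was above that with only a Crol site (5.22% and 4.53%).

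The percentiles of both proteins were also set side by side in kinds of regions with a peak in every list. Where Su(z)12 was present the median percentile was 56.3, 79.4 and 73.4 in the Crol lists and 45.2, 58.1 and 32.4 in the Cg lists, which overlapped (exact permutation test, p = 0.2). In regions over an exon and no start it was 51.5, 75.3 and 70.5 for Crol and 38.6, 51.1 and 27.8 for Cg, which did not overlap (exact permutation test, p = 0.1, adjusted p = 0.5 over 15 comparisons). Crol percentiles were above those of Cg over all these regions (medians 70.4 and 64.2). The median difference within a region was 26.03 points over exons against 1.90 in the other regions, while in introns it was 6.65 against 6.90 and in intergenic sequence 4.59 against 7.00, so the latter classes did not stand above the rest. Over transcription starts the means were 73.6 and 73.9. With E(z) the values were 69.4, 85.7 and 84.4 for Crol and 84.2, 87.7 and 84.3 for Cg, which overlapped.

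The 10 shared regions with the highest lowest percentile lay, in this order, near Atxn7, vri, lncRNA:CR45018, lncRNA:CR44619, aop, vri again, ph-d, dve, lncRNA:CR44621 and Sox14. Atxn7 is a subunit of the SAGA complex, vri a basic leucine zipper repressor of the circadian clock, aop an Ets domain repressor, ph-d the distal polyhomeotic gene of PRC1, dve a homeodomain protein and Sox14 an HMG box factor of the ecdysone response. The Atxn7 region (chromosome 2L, 2375641 to 2376872, over the transcription start) stood at percentiles of 99.5, 99.96 and 99.7 in the Crol lists and at 99.99, 99.95 and 99.97 in the Cg lists, with summits 40 bp apart and with CP190 and Pho. The ph-d region (chromosome X, 2121238 to 2124881, over the start) stood at 97.4, 99.98 and 98.4 for Crol and at 99.2, 99.5 and 99.2 for Cg, and it carried Pho, Ph, Psc, Pc and Su(z)12. All 10 regions had a Pho site, against 64.2% of all regions with peaks in the 6 lists, and 9 of them covered a start, against 57.7%, and in the vri intron (chromosome 2L, 5291245 to 5293810) no start was covered.

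The 10 regions with the highest ranked Crol peaks and no Cg peak lay near dnc, snRNA:LU, mon2, Sema1a, GstE11, Gclc, Dnz1, Sgt1, MED14 and fz. They include genes for a cAMP phosphodiesterase (dnc), an axon guidance protein (Sema1a), a glutathione transferase (GstE11), the catalytic subunit of glutamate cysteine ligase (Gclc), a Mediator subunit (MED14) and the Frizzled receptor (fz). The dnc region (chromosome X, 3176097 to 3176660, over the start) stood at 97.7, 99.2 and 95.0 in the 3 Crol lists and had none of the 11 partners. The fz region (chromosome 3L, 14272159 to 14273275, intergenic) stood at 99.7, 94.5 and 89.3 and had Pho. CP190 was at 4 of the 10 regions, Pho at 1, and the others had no partner. GTGTGT was within 100 bp of the summit in none of the 10. At all separate Crol sites the shares were 12.8% for CP190, 19.3% for Pho and 9.63% for GTGTGT, so these small counts are a description.

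The 10 regions with the highest ranked Cg peaks and no Crol peak lay near Unr, lncRNA:CR44603, Traf4, mIF2, ITP, CG6878, DCP2, Synj, dbr and asRNA:CR43957. Unr is an RNA binding protein of dosage compensation, Traf4 a signalling adaptor, mIF2 a mitochondrial translation factor, ITP a neuropeptide, DCP2 the mRNA decapping enzyme and Synj a phosphoinositide phosphatase. The Unr region (chromosome 3L, 8441231 to 8442683, over the start) stood at 99.8, 99.9 and 99.8 in the Cg lists and had CP190 and Pho. An intergenic region whose nearest start is that of lncRNA:CR44603 (chromosome 2L, 1632714 to 1633514) stood at 99.6, 99.8 and 99.7 and carried Pho, Ph, Psc, Pc, Su(z)12 and H3K27me3, a PcG site with no Crol peak in any list. The regions near mIF2 and asRNA:CR43957 also had Pho, Ph and Pc, with H3K27me3 near mIF2. CP190 was also at the regions near CG6878, DCP2, Synj and dbr. GTGTGT was within 100 bp of the summit in all but those near lncRNA:CR44603, ITP and CG6878. At all separate Cg sites the shares were 47.2% for CP190, 12.2% for Pho, 4.46% for Ph and 56.2% for GTGTGT. The 10 strongest Cg regions without Crol ranked higher in their lists, at 97.9 or more, than the 10 strongest Crol regions without Cg, at 89.3 or more.

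Some regions had peaks in all 6 lists at opposite ends of the ranking. Near Cnb, which encodes Centrobin of the centrosome (chromosome 3L, 1947421 to 1948470), Crol stood at 86.0, 94.2 and 91.1 and Cg at 7.21, 1.63 and 3.01, and the summits were 24 bp apart. The others of this kind lay near Hip14, Su(z)2, CG14777 and CG4751. In the region 2862 bp downstream of the start of RacGAP84C, inside an intron of rn (chromosome 3R, 7288055 to 7289433), Crol stood at 10.7, 4.69 and 12.5 and Cg at 99.05, 94.9 and 97.1, with summits 376 bp apart and with CP190, Su(Hw), Mod(mdg4) and Pho. The others lay near mask, Ran, CASK and IA-2, and all 5 carried CP190, as did 4 of the 5 regions where Crol ranked higher and 45.5% of all regions with peaks in the 6 lists. The longest distances between summits that were steady within each target, to 50 bp, lay near Raf, Pits, tna, Su(z)2 and CG3764. In the Raf region (chromosome X, 2292275 to 2298139) the Crol and Cg summits were 3970 bp apart, in 1 merged stretch of 5865 bp. These 15 regions were chosen for their differences, which are given as a description.

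Of the named loci, the PcG targets eve, en, inv and vg each had peaks in all 6 lists over the transcription start. At eve (chromosome 2R, 9978632 to 9981173), a pair rule homeobox gene, Crol stood at 78.1, 98.4 and 95.4 and Cg at 75.3, 79.8 and 71.7, with summits 36 bp apart. The insulator Homie is known to lie between eve and TER94. By the coordinates in the study's methods, the cloned Homie sequence lies inside the region over the TER94 start. The Cg summit of that region is within this sequence and the Crol summit is outside it. The paper reports Crol at Homie as well, somewhat weaker than at the PRE beside it, with both inside a single called peak. Only the strongest peak of a list was used here, so its summit does not show that Crol was absent from Homie. The region over the TER94 start (chromosome 2R, 9988172 to 9989297) stood at 85.7, 83.6 and 91.7 for Crol and at 53.0, 56.1 and 57.2 for Cg. Here the summits lay 652 bp apart, with the Cg summit nearer to the start, and CP190, Su(Hw) and Mod(mdg4) were present together with Pho, Ph, Psc, Pc, Su(z)12 and H3K27me3. A region upstream of TER94 (chromosome 2R, 9987249 to 9987693) had peaks in the 3 Crol lists and none for Cg. At en (chromosome 2R, 11525713 to 11528640), a homeobox gene, Crol stood at 80.6, 92.2 and 97.9 and Cg at 81.1, 77.1 and 85.4, with summits 38 bp apart. In the intron of Ubx, a Hox gene, the region at 16702580 to 16703627 of chromosome 3R stood at 80.6, 97.6 and 91.9 for Crol and at 94.0, 97.4 and 93.3 for Cg.

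The regions at the Hox genes Antp and Abd-B were few, and their counts are a description. Of all regions 29.5% had peaks in all 6 lists, 10.6% in the 3 Crol lists only and 12.3% in the 3 Cg lists only. Of 17 regions at Antp 4 had peaks in all 6 lists, 2 had peaks in the 3 Crol lists only and 4 in the 3 Cg lists only. At Abd-B 5 of 8 regions had peaks in all 6 lists, 0 in the 3 Crol lists only and 3 in the 3 Cg lists only, 2 of which covered Abd-B starts. The one at 16960092 to 16960644 of chromosome 3R stood at 82.4, 86.0 and 83.7 in the Cg lists with no Crol peak, and it carried Pho, Ph, Pc and H3K27me3. The start of crol itself (chromosome 2L, 11805958 to 11809645) stood at 92.5, 98.8 and 97.9 for Crol and at 95.1, 98.9 and 92.0 for Cg, with summits 812 bp apart, and the start of cg (chromosome 2R, 14173057 to 14176127) at 76.0, 92.6 and 90.8 and at 90.6, 88.7 and 87.0, with summits 36 bp apart. At ph-p the start region stood at 96.8 to 98.6 for Crol and at 92.5 to 94.3 for Cg. At Psc it stood at 64.0, 85.9 and 90.5 and at 85.0, 87.4 and 81.0. No region was found at pho.

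Gene lists drawn up with earlier results of these data known were read against the shares over all regions. A region belonged to a list when it touched a gene or its 2 kb upstream. Of 291 regions at 82 Polycomb target genes, which are mostly homeobox and other developmental regulators, 117 (40.2%) had peaks in all 6 lists, against 29.5% of all regions, and 31 (10.7%) were Crol only and 30 (10.3%) Cg only by the count of 3 lists against 0, against 10.6% and 12.3% of all regions. Of 212 regions at 23 ecdysone response genes 107 (50.5%) had all 6 peaks, 17 (8.02%) were Crol only and 21 (9.91%) Cg only. Eip75B, a nuclear receptor gene with 40 regions, had 20 of these, 10 with Cg peaks only and 0 with Crol peaks only. Hr4, another nuclear receptor gene, had 14 of 23 with all 6 and 2 with Crol peaks only, and br, the Broad zinc finger gene, had 10 of 23 with all 6 and 4 with Crol only. Of 73 regions at 23 hemocyte genes 30 (41.1%) had all 6 peaks, 9 (12.3%) were Crol only and 6 (8.22%) Cg only. Of 114 regions at 39 PcG and insulator genes 40 (35.1%) had all 6 peaks, 13 (11.4%) were Crol only and 9 (7.89%) Cg only. Where all 6 peaks were present, the median percentiles of Crol and Cg were 77.3 and 75.6 at the Polycomb targets, 76.1 and 81.5 at the ecdysone genes, 71.0 and 65.4 at the hemocyte genes and 75.8 and 85.6 at the PcG and insulator genes, against 70.4 and 64.2 over all such regions. The counts describe these lists, which share genes, and large genes hold more regions.

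The classes were also counted in the lists of cells depleted of Rump, which come from separate libraries. With sites made in the same way (9774 for Crol and 6935 for Cg), 80.1% of shared sites overlapped sites of both proteins there. Of separate Crol sites 79.8% overlapped only a Crol site and 3.72% both, and of separate Cg sites 72.3% overlapped only a Cg site and 3.84% both. Depletion of Rump differs between these lists and the control lists, so the parts of treatment and of library in the remainder cannot be told apart. Replicate 2 of Cg in those cells stood apart, with 44.3% of its summits in coding sequence against 17.9% and 15.1% in the other 2 lists. Without it, and with a peak needed in both of those, 74.3% of shared sites overlapped sites of both proteins, 82.6% of separate Crol sites only a Crol site and 70.9% of separate Cg sites only a Cg site, an alternative chosen after seeing the data.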

How the data were processed

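ChIP-seq peak lists of Kc167 cells were used, 3 of Crol and 3 of Cg from control cells, with the control lists of 11 other targets as partners and the Crol and Cg lists of Rump depleted cells for comparison. Per the methods and the submitters' processing notes, Trim Galore 0.6.7 trimmed the 50 bp reads and Bowtie2 2.5.3 placed them on dm6. Reads of mapping quality under 20, rRNA reads and duplicates were dropped, and MACS2 2.2.7.1 called each replicate against its input. The deposited fold enrichment is the authors' ratio of immunoprecipitated over input signal, and the -log10 q of each peak is also the value the authors deposited. Neither is a read count, and depth was not analysed here. Pc and H3K27me3 lists hold broad peaks.

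Overlaps needed 1 bp. Lists were handled with Python 3.11.15, numpy 2.4.6 and pandas 2.3.3, and the code was tested on simulated lists. Genes came from Ensembl release 115 (BDGP 6.54), sequence from the RefSeq copy of dm6, with no sequence shown from chromosome arm 2R. Peaks on the 6 arms ended within the arm lengths of that genome, and 38 to 41 peaks of each Crol list and 8 to 14 of each Cg list lay on other sequences. A site was placed at a start, exon, intron or intergenic sequence, in this order. GC content and words were read within 100 bp of summits on the 6 arms. The 3 Crol lists were set against the 3 Cg lists by exact permutation, two-sided, shared with separate peaks by exact sign flips over 3 lists, and p-values for partners were adjusted by Benjamini-Hochberg over 11. No test was run over sites or genes.

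Named regions were the 10 with the highest lowest percentile among regions with peaks in all 6 lists, and likewise per target among regions with peaks in its 3 lists and none of the other, the 5 with the largest percentile difference in each direction, the 5 with the largest distance between summits that spread at most 50 bp within each target, and a fixed set of loci. A region is called by its nearest transcription start. The comparison, the lists and the loci were chosen with earlier results of these data known. Alternatives covered the calling threshold, list length, overlap, lists per site, rank, window, word, arms, single lists left out and the replicate block. Psc, E(z) and Su(z)12 peak names carry other replicate numbers than their labels, and files were assigned by label. Inputs hold no peaks, and 17 of them carry conflicting labels and were not used.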

Additional observations from a re-analysis of the deposited data

How the results depend on the processing

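Of 280 values recomputed over 24 results, 9 changed sign and 5 counts moved by more than 1.5 times. Separate Crol sites numbered 1903 to 3696 when a single list was left out, with 1975 without Crol replicate 2 and 1903 without Crol replicate 3. They numbered 2204 when all 3 lists were needed and 5664 with the lists of Rump depleted cells. Separate Cg sites numbered 2043 to 2954 without single lists and 3875 when summits had to lie within 250 bp. Shared Crol sites stayed between 3835 and 4803. The log2 difference in peaks per list, -0.01, ranged from -0.0632 to 0.0885 without single lists, and it was above 0 without Crol replicate 1 (0.0885) or Cg replicate 2 (0.0830). The Pho difference of 0.06 points ranged from -1.23 to 1.07 without single lists and was -0.81 with sites of all 3 lists and -0.57 within 100 bp of the summit, an alternative chosen after seeing the data. It was 3.69 with lists of equal length. With sites of all 3 lists the Ph difference was -0.21 and the Su(z)12 difference -0.26 points. The cause of these changes was not tested. The gap in the share of peaks at a site of the other target ranged from -14.0 to -1.30 points without single lists, and the smallest value was that without Crol replicate 2. The rank gap of Cg peaks ranged from 1.98 points, with summits at most 250 bp apart, to 13.8, with ranks by -log10 q, and that of Crol peaks from 26.6 to 38.8.

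Same-numbered Crol and Cg lists did not deviate together throughout, with correlations of -0.01, 0.42 and 0.03. The middle value, of the pair with a shared input, was the highest of any Crol and Cg pair. These correlations are too few to settle whether replicate numbers pair the lists. With the replicate block the differences were unchanged in size, for example -22.6 points for GTGTGT, 6.47 for GC content and -9.30 for the share at sites of the other target, and the exact p of these was 0.25, the smallest that 3 pairs allow. Depth was not analysed here, so it cannot be said how many weak sites a deeper library would add.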
